A study of Sus scrofa with 12 samples.

Results

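The 10 genes that code for the peroxisome proliferator-activated receptors (PPARs), their PGC-1 coactivators, their retinoid X receptor (RXR) partners and the estrogen-related receptors (ERRs) were followed in the Semimembranosus muscle of Italian Large White pigs. They were taken as the rows of the count table whose Ensembl identifier maps to PPARA, PPARD, PPARG, PPARGC1A, PPARGC1B, RXRA, RXRB, RXRG, ESRRA and ESRRG. All 10 were found among the 25880 genes listed, all had counts, and all 10 were among the 14262 genes that passed the filter on low counts and were tested. The RNA came from 6 pigs with high and 6 pigs with low intramuscular fat (IMF), numbered here 1 to 6 and 7 to 12 as in the labels. By the labels these were gilts (females) and barrows (castrated males) of 229 to 249 days and 150 to 160 kg, slaughtered commercially after the same housing and diet. No animal was treated, and the groups differ by a trait that was measured and not set.

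PPARs are nuclear receptors that are switched on by fatty acids and their derivatives. Each binds DNA as a pair with an RXR and raises the transcription of genes for the uptake, storage and burning of lipid. PPARA is best known for fatty acid oxidation in liver and muscle, PPARD for the same in working muscle, and PPARG for the making of fat cells. The PGC-1 proteins PPARGC1A and PPARGC1B bind no DNA of their own. They dock on receptors such as the PPARs and the ERRs, which are orphan receptors, and so drive the making of mitochondria and oxidative enzymes.

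The receptors read DNA through the P box, a stretch of 6 residues at the base of the first zinc finger that touches the DNA half-site. Its coding sequence is shown so that this stretch can be compared among the 8 receptors. What a difference in it means for the DNA that is bound was not tested. Sequences are RefSeq coding sequences on Sscrofa11.1, 5′ to 3′ on the coding strand, and capitals mark bases unlike PPARA.
PPARA: tgtgaaggttgcaagggc
PPARD: tgCgaGggGtgcaagggc
PPARG: tgtgaaggAtgcaagggT
RXRA: tgCgaGggCtgcaagggc
RXRB: tgtgaGggCtgcaaAggc
RXRG: tgtgaaggCtgcaaAggG
ESRRA: tgtgaGgCCtgcaaAgCc
ESRRG: tgtgaagCCtgcaaggCG

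In the PPARs and RXRs, 2 or 3 of the 18 bases differed from PPARA and the translated peptide was the same. In ESRRA 5 and in ESRRG 4 bases differed, and the peptide was not that of PPARA. In the 3 PPAR genes the P box was split by an intron after base 15, while in the RXR and ERR genes it lay within 1 exon. For PPARA, on the minus strand of chromosome 5, the 2 pieces were chr5:3313081-3313095 and chr5:3311828-3311830. Those of PPARG lay on the plus strand at chr13:68385610-68385624 and chr13:68394638-68394640. The boxes of RXRA at chr1:273776874-273776891 and RXRG at chr4:85338237-85338254 lay on the plus strand, and those of RXRB at chr7:25240416-25240433, ESRRA at chr2:7810905-7810922 and ESRRG at chr10:6899442-6899459 on the minus strand. Over whole proteins, identity was highest between RXRA and RXRG (66.5%), followed by RXRA and RXRB (63.3%) and by PPARA and PPARD (60.6%), and was 54.2% between PPARA and PPARG, 54.1% between ESRRA and ESRRG and 26.0% between the PGC-1 pair. The longest run of bases shared by the transcripts of any of the 45 pairs of regulators was 32 (RXRA and RXRG), shorter than the reads of 100 bp.

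Stranded libraries of polyadenylated RNA gave between 131048805 and 178013997 counts per pig. These totals exceed the input reads that the paper lists for each pig, so a count need not be a separate fragment. Counting error was not estimated, and it weighs most on genes of few counts. Gene positions follow RefSeq on Sscrofa11.1. The labelled sex went against the counts of the Y chromosome genes EIF1AY and KDM5D in 6 of the 12 pigs, 2 of the high IMF group (pigs 3 and 5) and 4 of the low IMF group (pigs 7, 8, 9 and 10). The groups were used as labelled, the comparisons of the groups were repeated without these pigs (the correlations and the order of levels were not), and an exchange of samples between the groups cannot be checked from the counts. The muscle markers ACTA1, CKM, DES, MYOG and MYOD1 summed to between 24869 and 50882 CPM (counts scaled to the same library total) in the 12 pigs, and MB and TTN carried no symbol in the table. In the comparison of low with high IMF by edgeR's quasi-likelihood test, 0 genes (0% of those tested) were differentially expressed genes (DEGs), the limits being an adjusted p of 0.05 and a log2 fold change of 0.58 in either direction (log2FC, always given as low over high IMF). An unadjusted p at or under 0.05 was reached by 1486 genes (10.4%), of which 767 were higher in low IMF (5.38% of the genes tested) and 719 in high IMF (5.04%). The Wald test of DESeq2 called 64 DEGs of 13967 genes (0.458%).

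PPARA, PPARGC1A and RXRA were higher in the low IMF pigs at an unadjusted p at or under 0.05, and no regulator was higher in the high IMF pigs at that level. These are 3 of the 10 regulators, or 30%, beside 5.38% of all genes tested in that direction. The regulators were chosen with earlier results of these data known, so setting these shares side by side is not a test. None was a DEG by edgeR after adjustment over all genes. The same 3 were at that level with only the 4 high and 2 low IMF pigs whose Y counts fit the labelled sex. In that fit 279 of 14972 genes were higher in low IMF at that level. The edgeR adjusted p was 0.998 for each of the 3. These pigs are part of the same groups, so that fit is not an independent check. With all pigs, the log2FC was above 0 for 7 regulators and below 0 for 3, with a median of 0.10 beside −0.01 over all genes tested. Tissue RNA of this kind mixes cell types, and fewer cells of a type cannot be told apart from less RNA per cell.

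**Figure D1:**
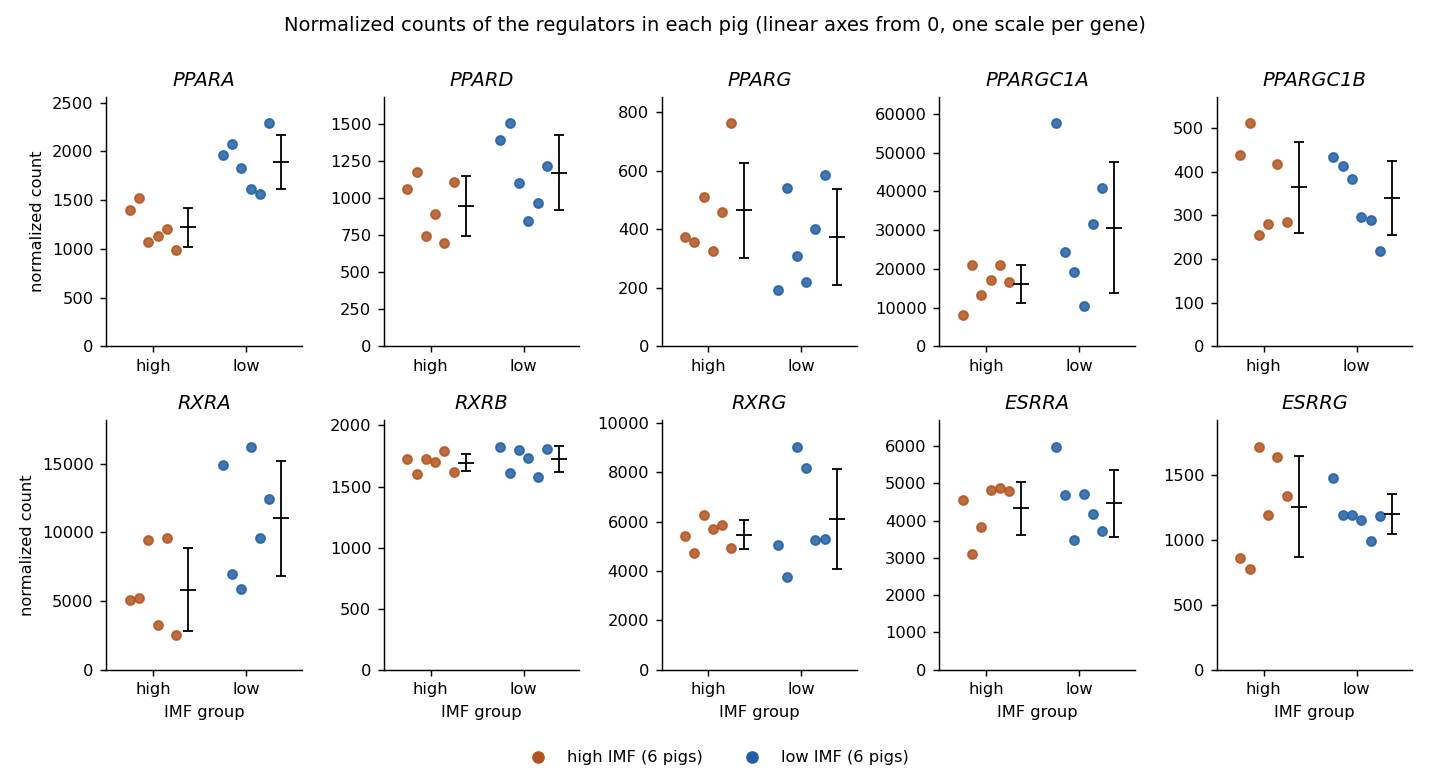
Normalized counts of the 10 regulators in each pig, on linear axes that start at 0 with a scale of their own for each gene. Points are pigs (6 of high and 6 of low IMF) and black bars the mean ± SD of a group. The groups separate for PPARA alone, while PPARGC1A and RXRA are higher in most low IMF pigs and RXRB is nearly level.

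Among the PPARs, PPARA (ENSSSCG00000000006, chromosome 5, 3302755 to 3321091) had normalized counts with a lowest value of 988, a median of 1168 and a highest value of 1522 in the high IMF pigs. In the low IMF pigs the lowest value was 1564, the median 1893 and the highest 2287. Every low IMF pig was thus above every high IMF pig, a pattern shown by 37 of all genes tested (0.259%), and by no other regulator. The means were 1220 ± 204 (SD, n = 6) in high and 1889 ± 276 (SD, n = 6) in low IMF, a 1.55-fold difference. The edgeR log2FC was 0.63 (SE 0.13) with an unadjusted p of 0.00032 and an adjusted p of 0.199, and PPARA had the 23rd smallest p of all genes tested. The exact two-sided permutation test of log2 CPM gave p = 0.00216, the smallest that 6 pigs against 6 allow. The call depends on the test. The Wald test of DESeq2 on all genes with counts gave PPARA a log2FC of 0.64 with an adjusted p of 0.00389, and an adjusted p at or under 0.05 in all 12 of its fits that left out 1 pig (log2FC from 0.57 to 0.71), although without pig 12 the log2FC of 0.57 was under the DEG limit of 0.58. On simulated counts DESeq2 recovered a larger share of the changed genes than edgeR, and a larger share of its calls was false. Those counts were drawn with dispersions estimated by edgeR, so they do not decide between the tests. With only the 6 pigs whose Y counts fit the labelled sex, the edgeR log2FC was 0.62 with an adjusted p of 0.998.

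PPARD (ENSSSCG00000001539, chromosome 7, 31222533 to 31295221), which drives oxidative metabolism in muscle, ran from 695 through a median of 976 to 1176 in high IMF and from 845 through 1160 to 1502 in low IMF. The groups overlapped, with 3 low IMF pigs above all high IMF pigs, and the log2FC of 0.31 (SE 0.17) had an edgeR p of 0.0956. PPARG (ENSSSCG00000011579, chromosome 13, 68301566 to 68433951), the fat cell receptor, ran from 325 through 417 to 762 in high IMF and from 192 through 355 to 587 in low IMF. Its log2FC had the opposite sign, −0.31 (SE 0.30), and an interval from −0.97 to 0.35 that holds 0 and a wide range on both sides. It was −0.11 without pig 6 and −0.47 without pig 12. Pig 6 of the high IMF group had the highest PPARG and pig 7 of the low IMF group the lowest.

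The coactivator PPARGC1A (ENSSSCG00000029275, chromosome 8, 17841844 to 18527953), a hub of mitochondrial gene expression that muscle raises with exercise, ran from 8197 through a median of 16835 to 21095 in the high IMF pigs. In the low IMF pigs it ran from 10400 through 27980 to 57568. The groups overlapped, and 4 low IMF pigs were above all high IMF pigs, while pig 10 of the low IMF group was below most of the high IMF pigs. The edgeR log2FC was 0.92 (SE 0.35), a 1.89-fold difference, with an unadjusted p of 0.0197 and an adjusted p of 0.434, and the exact permutation test gave p = 0.0844. Without pig 7, the highest, the log2FC was 0.65 with an edgeR p of 0.0628. PPARGC1B (ENSSSCG00000014437, chromosome 2, 150823338 to 150924871), its relative, ran from 254 through 351 to 511 in high IMF and from 219 through 341 to 435 in low IMF. Its groups overlapped throughout, with a log2FC of −0.10 and a 95% interval from −0.59 to 0.38.

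Of the RXRs, the shared partners of the PPARs, RXRA (ENSSSCG00000038220, chromosome 1, 273698842 to 273797622) ran from 2528 through a median of 5122 to 9561 in high IMF and from 5905 through 11035 to 16225 in low IMF. All 6 low IMF pigs were above the median of the high IMF pigs, and 4 high IMF pigs were below all low IMF pigs. The log2FC was 0.92 (SE 0.35) with an edgeR p of 0.0195 and an adjusted p of 0.434, and the exact permutation test gave p = 0.0368. RXRB (ENSSSCG00000001474, chromosome 7, 25236005 to 25242842) stayed between 1574 and 1826 in all 12 pigs, a range of 1.16-fold, with a log2FC of 0.03 and a 95% interval from −0.15 to 0.20. RXRG (ENSSSCG00000006328, chromosome 4, 85158313 to 85357116), the muscle-rich form, ran from 4716 through 5560 to 6271 in high IMF and from 3769 through 5302 to 9044 in low IMF. Its 2 highest values were those of pigs 9 and 10 of the low IMF group, while the other low IMF pigs lay among or below the high IMF pigs, and the log2FC of 0.16, which was 0.00997 without pig 9, had an edgeR p of 0.415.

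No difference was detected for the ERRs, through which PPARGC1A acts on mitochondrial genes. ESRRA (ENSSSCG00000013028, chromosome 2, 7803504 to 7812868) ran from 3101 through 4668 to 4872 in high IMF and from 3483 through 4431 to 5979 in low IMF, with a log2FC of 0.04 and a 95% interval from −0.28 to 0.37. ESRRG (ENSSSCG00000010814, chromosome 10, 6710615 to 7371419) ran from 779 through 1269 to 1720 in high IMF and from 993 through 1191 to 1482 in low IMF, with a log2FC of −0.07 and a 95% interval from −0.49 to 0.36. The low IMF pigs all lay within the range of the high IMF pigs for ESRRG.

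**Figure D2:**
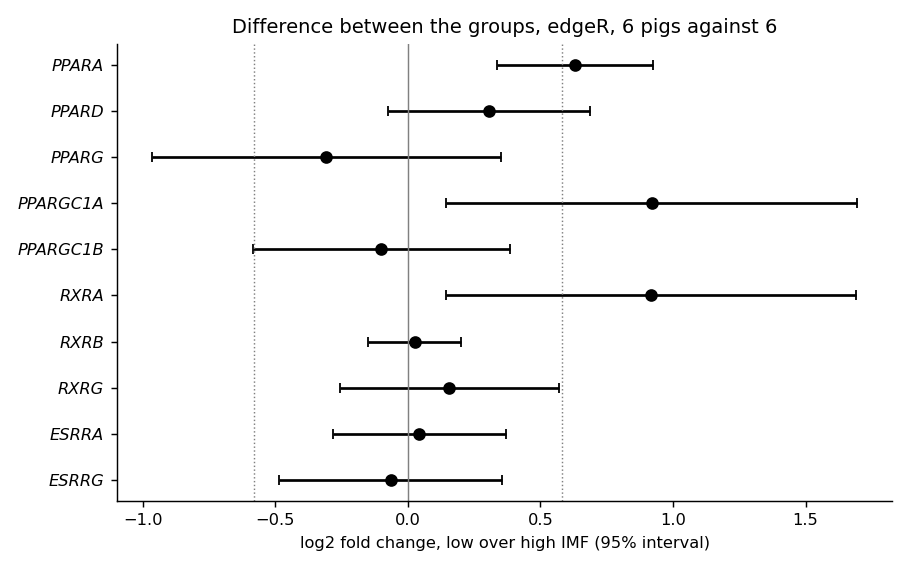
Log2 fold change of each regulator, low over high IMF, by edgeR (points) with the 95% interval (bars). Dotted lines mark the DEG limit of 0.58 in size. The intervals of PPARA, PPARGC1A and RXRA lie above 0, and that of RXRB is the narrowest, from −0.15 to 0.20.

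The regulators differed widely in how even they were between pigs of a group. After group means were taken off, the SD of log2 CPM was 0.71 for PPARGC1A and 0.69 for RXRA, which put them at the 85.2 and 84.2 percentile of all genes tested. RXRB, at 0.08, was at the 0.3 percentile, so that very few genes were more even. PPARA stood at 0.22 (28.2 percentile), below the median gene at 0.32. PPARG followed the uneven end at 0.57 (77.1 percentile). The log2FC of PPARA was thus smaller than those of PPARGC1A and RXRA but was measured with a smaller standard error (0.13 against 0.35).

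Whether PPARA differed from its relatives was asked with the log2 ratio of PPARA to each of them in every pig, where gene length drops out of the difference between groups. Values are the mean ratio in low IMF less that in high IMF, tested by exact permutation and adjusted over 13 ratios. PPARA against PPARGC1B was higher by 0.72 in low IMF (adjusted p = 0.0281, exact permutation), from 1.53 to 2.07 in the high IMF pigs and from 2.17 to 3.37 in the low IMF pigs, without overlap. PPARA against RXRB was higher by 0.61 (adjusted p = 0.0281, exact permutation), with a slight overlap between the groups. Against PPARG the difference was larger, 1.00, but also more variable (exact permutation p = 0.0152, adjusted 0.0656), and against ESRRA it was 0.59 (exact permutation p = 0.0325, adjusted 0.106). Against PPARD it was 0.33, against RXRG 0.54 and against ESRRG 0.65, none of them past the threshold.

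No difference from the regulators that were also higher in low IMF was detected. The ratio of PPARA to PPARGC1A differed by −0.15 (SE 0.40, exact permutation p = 0.706) and that to RXRA by −0.36 (SE 0.41, exact permutation p = 0.396). These errors leave room for unequal changes in either direction. Within families, RXRG against RXRA was lower by 0.89 on the log2 scale in low IMF (exact permutation p = 0.0606, adjusted 0.113), and PPARGC1A against PPARGC1B was higher by 0.88 (exact permutation p = 0.0996, adjusted 0.129). Without the 6 pigs whose Y counts go against the labelled sex, 0 of the 9 ratios of PPARA were at an adjusted p of 0.05, but 4 against 2 pigs cannot give an exact p under 0.0667.

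**Figure D3:**
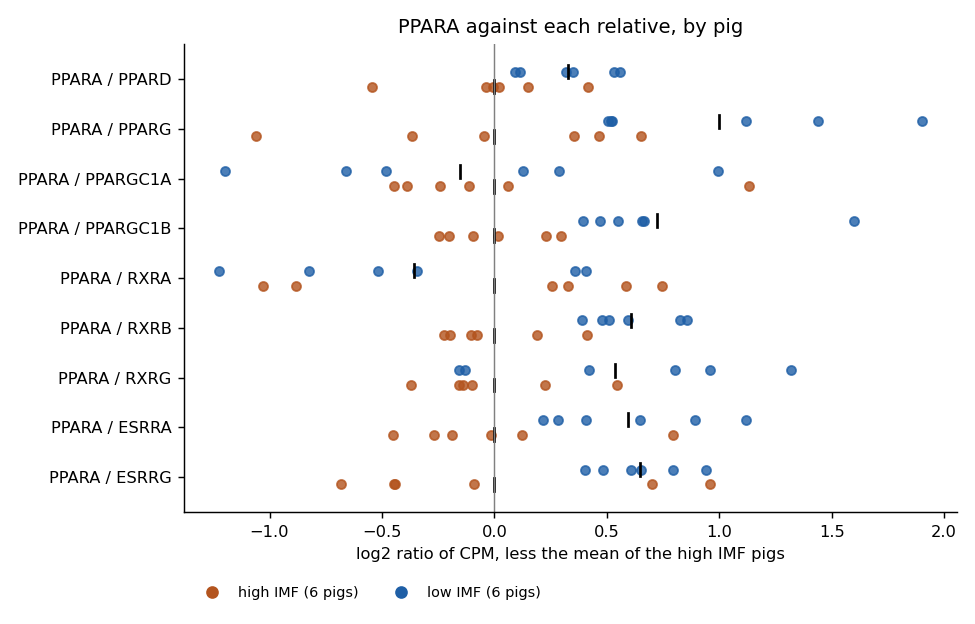
Log2 ratio of PPARA to each of its 9 relatives in every pig, less the mean of the high IMF pigs, so that each row starts from 0. Points are pigs and black marks the group means. The low IMF pigs lie apart from the high IMF pigs for PPARGC1B and almost so for RXRB, and the groups mix for PPARGC1A and RXRA.

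Levels of different genes were compared as CPM per kilobase of the longest RefSeq transcript. RXRG (16.6 ± 4.20, SD, n = 12) and PPARGC1A (16.8 ± 10.0, SD, n = 12) stood at the top, with ESRRA at 13.1 ± 2.31 (SD, n = 12), and neither neighbouring pair of these 3 was separated by the exact sign-flip permutation test (RXRG and ESRRA were not set against each other). PPARA (7.54 ± 2.03, SD, n = 12) was below ESRRA in all 12 pigs, 1.77-fold (adjusted p = 0.00147, exact permutation). It could not be told apart from RXRA at 6.43 ± 3.37 (SD, n = 12). RXRB followed at 3.98, then PPARD at 1.76 and PPARG at 1.35, which did not separate (adjusted p = 0.0615, exact permutation), then ESRRG at 0.646 and PPARGC1B at 0.236. The muscle thus held far more transcript of PPARGC1A than of PPARGC1B on this scale. Of the PPARs, PPARA had the highest mean, which depends on the length taken for it.

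The choice of length matters for this order. PPARA has a single RefSeq transcript of 1404 bp that is coding sequence only, whereas coding sequence is 16.8% of the longest transcript of RXRA and 10.6% of that of ESRRG. Per kilobase of coding sequence, PPARGC1A (63.2), RXRA (38.4), RXRG (28.4) and ESRRA (23.6) were above PPARA (7.54), which was beside RXRB (7.23), ESRRG (6.08) and PPARD (5.43), with PPARG (1.89) and PPARGC1B (0.776) last. On this scale PPARA was not separated from RXRB (adjusted p = 0.905, exact permutation). PPARD was above PPARG in all 12 pigs here, 3.01-fold (adjusted p = 0.0022, exact permutation), unlike per kilobase of transcript, where the 2 did not separate. Of the 9 neighbouring pairs in the first order, 6 kept their direction. On both scales PPARA had the highest mean of the PPARs, and PPARGC1B was the lowest regulator. The length of PPARA is the same on both, so the 2 scales are no check on its place. Reads were counted on Ensembl genes, and any counted outside its coding sequence would raise PPARA on both. PPARA was not tested against PPARD or PPARG on either scale.

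**Figure D4:**
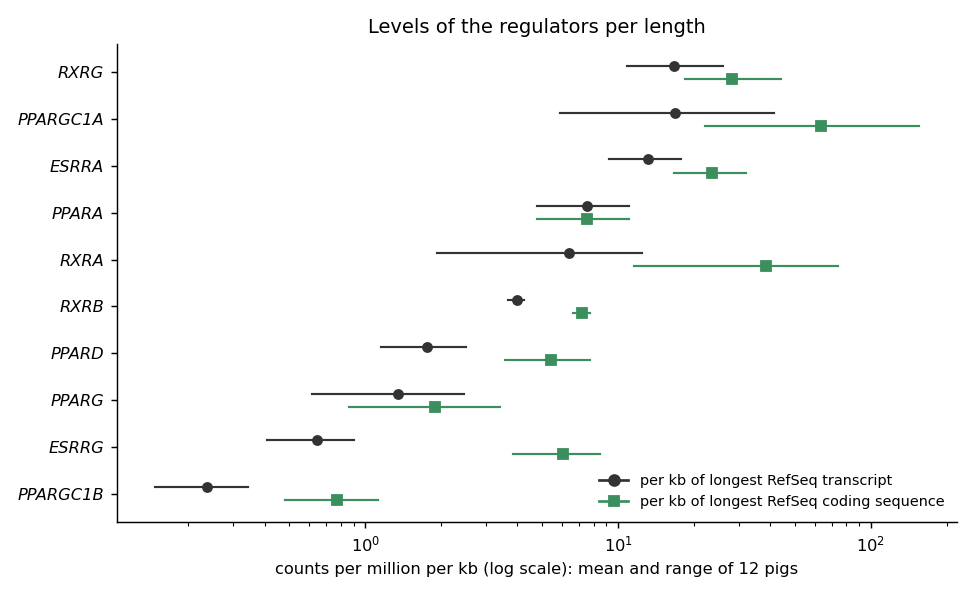
Levels of the regulators as CPM per kilobase on a log axis, with the mean (symbol) and the range of 12 pigs (line), for the longest RefSeq transcript (circles) and its longest coding sequence (squares). PPARA has one value on both since its model holds only coding sequence, and RXRA and ESRRG move most between the scales.

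Across pigs, with group means taken off, none of the 45 pairs of regulators was correlated at an adjusted p of 0.05. The strongest was PPARD with RXRG, with r = −0.68 (permutation p = 0.0158, adjusted 0.71) and rho = −0.85 (permutation p = 0.00192, adjusted 0.0863), and with r = −0.61 without pigs 5 and 10. The genes most like PPARA were CLSTN1 (r = 0.95), CABIN1 (0.94), OTUD5 (0.94), BOD1L1 (0.93) and LMF2 (0.93), out of 11836 named genes over 12 pigs, given as a description. The regulator most like it was PPARD, with r = 0.57, at rank 1261 of those genes. PPARGC1A (r = 0.26) and RXRA (r = 0.10) ranked lower.

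PPARG was correlated with the mean of the fat cell markers, though not with each of them. Of 60 pairs of a regulator and a list of cell type markers (adipocytes, slow and fast fibres, endothelium, macrophages and fibro-adipogenic cells), its pair with the 11 adipocyte markers alone passed an adjusted p of 0.05, with r = 0.93 (permutation p = 0.000301, adjusted 0.0181) and rho = 0.90 (permutation p = 0.000625, adjusted 0.0375). It was 0.81 within the high IMF pigs, 0.98 within the low IMF pigs and 0.96 without pigs 6 and 12. With 1 pig left out in turn, r stayed between 0.90 and 0.97, and the adjusted p lay between 0.0146 and 0.0674, over 0.05 without pig 1, 4, 9 or 11. When a list was read as its summed CPM, 0 pairs passed. The markers closest to PPARG were CIDEC (r = 0.97), a protein of the fat cell droplet, and ADIPOQ (r = 0.95), the hormone adiponectin, both known targets of PPARG, and GPD1, an enzyme of glycerol phosphate that muscle also makes, had r = −0.64. LEP, PLIN1, FABP4 and CEBPA had r from 0.76 to 0.90, while LIPE (0.55), PLIN4 (0.37), PCK1 (−0.11) and CFD, adipsin (−0.13), followed PPARG less or not at all.

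No shared shift of the adipocyte markers with the IMF group was detected. None of the 11 was higher in low IMF at an unadjusted p of 0.05, and 1, CEBPA, was higher in high IMF. The shares over all genes tested were 5.38% and 5.04%. CEBPA had a log2FC of −0.82 (edgeR adjusted p = 0.451), and the median log2FC of the list was 0.14. Normalized counts of ADIPOQ ran from 2930 through 6158 to 11499 in the high IMF pigs and from 1234 through 5356 to 11294 in the low IMF pigs. PLIN1, which coats the fat cell droplet, ran from 290 through 544 to 875 and from 147 through 583 to 1577 in the same order. LEP, the hormone leptin, ran from 11.0 to 123 and from 0 to 141, and pig 7, the lowest in PPARG, was the one at 0. The groups overlapped for each of them, and no higher level in the group with more fat by label was detected. Their log2FC was −0.15 (SE 0.54) for ADIPOQ, 0.33 (SE 0.49) for PLIN1 and 0.14 (SE 0.85) for LEP. These errors leave room for differences in either direction. The summed CPM of the list ran from 1141 to 1410 in high and from 1058 to 1475 in low IMF, but GPD1 made up between 55.0% and 85.2% of it. Without GPD1 the sum ran from 287 to 400 and from 156 to 583.

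**Figure D5:**
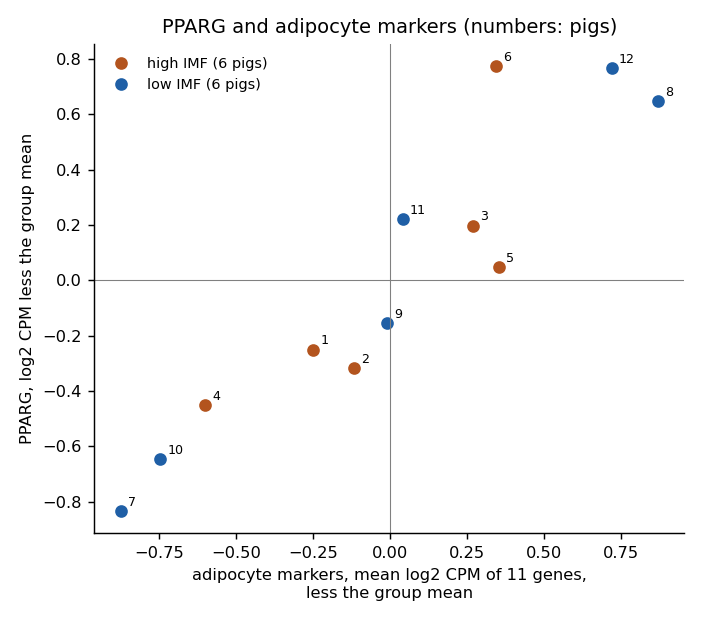
PPARG (log2 CPM) against the mean log2 CPM of 11 adipocyte markers in 12 pigs, both less the mean of the pig's group, with pig numbers. PPARG rises with the markers in both groups, from pig 7 at the lower left to pigs 8 and 12 at the upper right.

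Genes that act on the regulators were read from a list of 25 coregulators and upstream factors, of which 24 were tested. At an unadjusted p of 0.05, 6 were higher in low IMF and 0 in high IMF (5.38% and 5.04% over all genes tested), and 0 were DEGs, with a median log2FC of 0.09 beside −0.01 over all genes tested. LPIN1, a lipid phosphatase that also serves as a coactivator of PPARA with PPARGC1A, ran from 3571 through 5862 to 7992 in high and from 6872 through 9988 to 12819 in low IMF, a log2FC of 0.71 (SE 0.20, edgeR adjusted p = 0.367). FOXO1 had a log2FC of 0.73, the acetyltransferase CREBBP 0.63, the muscle factor MEF2D 0.44, the CREB coactivator CRTC2 0.43 and the receptor coactivator NCOA2 0.33. Several of these are known to raise the PPARGC1A gene or to work with its protein. The count was between 5 and 8 with 1 pig left out in turn, and 1 (LPIN1) with only the 6 pigs whose Y counts fit their label, where FOXO1 had a log2FC of 0.85 and NCOA2 of 0.40, but CREBBP of 0.22, MEF2D of 0.13 and CRTC2 of 0.0456.

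The textbook targets of PPARs come first for oxidation and then for storage. Of 22 genes of fatty acid oxidation tested, 1 was higher in low IMF and 1 in high IMF at an unadjusted p of 0.05, a share near the 10.4% of all genes tested, with a median log2FC of −0.06. UCP3, a mitochondrial carrier induced by fatty acids in muscle, ran from 351 through 972 to 1988 in high and from 767 through 1624 to 8260 in low IMF, a log2FC of 1.40 (SE 0.54, edgeR adjusted p = 0.441). The highest value was that of pig 12, and without that pig the log2FC was 0.70 with an edgeR p of 0.113. UCP3 kept an unadjusted p of 0.05 in 20 of 23 alternatives. Its log2FC was 2.52 (edgeR adjusted p = 0.998) with only the 6 pigs whose Y counts fit their label, pig 12 among them. EHHADH, of peroxisomal oxidation, had a log2FC of −0.35 (edgeR adjusted p = 0.475). It kept an unadjusted p of 0.05 in 9 of 23 alternatives, lost it without any 1 of pigs 3 to 10 and 12, and was at −0.0509 with only the 6 pigs whose Y counts fit their label. The other 20 did not pass.

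The list of lipid uptake and droplets had 11 tested genes. At an unadjusted p of 0.05, 0 were higher in low IMF and 2 in high IMF (5.38% and 5.04% over all genes tested). The median log2FC was −0.38. This median includes the hormone FGF21 (log2FC −0.53) and TXNIP (−0.48), which are not genes of lipid uptake or droplets. PLIN2, a coat protein of lipid droplets in muscle fibres, ran from 6793 through 10481 to 24016 in high and from 6120 through 6977 to 8419 in low IMF, with a log2FC of −0.80 (SE 0.26, edgeR adjusted p = 0.42). Without pig 6, the highest, PLIN2 was at −0.50. G0S2, an inhibitor of the lipase PNPLA2, ran from 29.9 through 36.1 to 96.2 in high and from 6.02 through 19.1 to 29.4 in low IMF, without overlap at these low counts (as for 0.4% of all genes in that direction), with a log2FC of −1.41 (SE 0.43, edgeR adjusted p = 0.419). Both are known PPAR targets, and both were lower in low IMF. Of the 11 genes, 3 had a log2FC above 0, PNPLA2 (0.31), LPL (0.28) and SLC27A1 (0.14), none at an unadjusted p of 0.05. The activity of the PPARs was not measured, and the part of PPARA in these differences was not tested. With only the 6 pigs whose Y counts fit the label, PLIN2 had a log2FC of −0.75 and G0S2 one of −1.40, and neither reached an unadjusted edgeR p of 0.05.

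The list of mitochondrial targets of PPARGC1A and the ERRs also held FNDC5, SLC2A4 and VEGFA, which are not mitochondrial genes. Of its 24 tested genes, 0 passed an unadjusted edgeR p of 0.05 in either direction, beside 10.4% of all genes tested. The median log2FC was −0.06. The smallest p belonged to MFN2, of mitochondrial fusion (log2FC 0.22), the transcription factor NRF1 (−0.19) and cytochrome c, CYCS (−0.27), with unadjusted edgeR p-values from 0.0797 to 0.102. The other members of the families, ESRRB (log2FC −0.21) and PPRC1 (0.09), did not pass either.

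Markers of muscle fibres and of other cells were counted in the same way, beside 5.38% (higher in low IMF) and 5.04% (higher in high IMF) over all genes tested. In lists of 5 to 7 markers, 1 gene at that level says little about the list. Of 5 fast fibre markers, 1 was higher in low IMF at an unadjusted p of 0.05 (ATP2A1, log2FC 0.46, edgeR adjusted p = 0.367). TNNT3 (log2FC 0.16), CASQ1 (0.06), TNNC2 (0.05) and TNNI2 (0.04) did not pass. The summed CPM of the 5, which includes ATP2A1, ran from 18850 to 26175 in high and from 23041 to 30777 in low IMF (exact permutation p = 0.0455, unadjusted). Pig 7, the highest in PPARGC1A, was the highest in this sum and also in the slow fibre, skeletal muscle and endothelial sums. Pig 6, the lowest in RXRA and PPARA, was the lowest in this sum and in the skeletal muscle sum. Over all pigs with group means taken off, PPARGC1A had r = 0.17 with the fast fibre markers (permutation p = 0.616, adjusted 0.958). MYH1, MYH2, MYH4 and MYLPF carried no symbol in the table. Of 6 slow fibre markers, 0 passed in either direction, and their sum ran from 1941 to 5054 and from 1393 to 5975. Of 5 endothelial markers, 1 was higher in low IMF (CDH5, log2FC 0.55, edgeR adjusted p = 0.383). The summed CPM of the endothelial markers ran from 97.9 to 131 in high and from 102 to 166 in low IMF (exact permutation p = 0.143). Of 6 macrophage and 7 fibro-adipogenic markers, 0 were higher in low IMF and 1 of each in high IMF. These were AIF1 (log2FC −0.46, edgeR adjusted p = 0.463) and PDGFRA (log2FC −0.42, edgeR adjusted p = 0.441). The log2FC was above 0 for 2 of the macrophage and 4 of the fibro-adipogenic markers. Across pigs with group means taken off, PPARGC1A had r = 0.73 with the endothelial markers (permutation p = 0.016, adjusted 0.459) and RXRA r = 0.62 with the fast fibre markers (permutation p = 0.0382, adjusted 0.459), while PPARA had r = 0.04 with fast fibre and 0.30 with endothelial markers. The part of these cells in the differences between the groups was not tested.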

How the data were processed

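RNA of the Semimembranosus muscle of 12 pigs was sequenced from stranded poly(A) libraries as read pairs of 100 bp, pairs of libraries sharing a lane that the labels do not give. The authors trimmed reads with Trimmomatic, aligned them to Sscrofa11.1 with HISAT2, assembled transcripts with StringTie and used HTSeq to count reads on Ensembl genes. They deposited these raw counts without normalization. The annotation release and the strand option are not given in the sources used here, so overlapping and antisense genes are uncertain. No column of the table was left unused.

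Groups came from the labels, and 14857 genes had a symbol. Genes kept by filterByExpr were normalized by TMM and compared with edgeR's quasi-likelihood test (edgeR 4.0.16, R 4.3.3), group as the only term, Benjamini-Hochberg adjustment over 14262 genes. Intervals used 10 residual degrees of freedom. Log2 CPM had a prior count of 2. Normalized counts are counts over TMM library sizes. Ratios, orders and correlations (group means removed) were tested by exact two-sided permutation (scipy 1.17.1, numpy 2.4.6). Sequences and lengths are from RefSeq by symbol (Biopython 1.88). All 10 regulators matched.

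The alternatives tried were 2 other normalizations (upper-quartile and the size factors of DESeq2), the Wald test of DESeq2 1.42.0, limma-voom (limma 3.58.1), other filters, robust dispersion, labelled sex or age, each pig left out, and the pigs with conflicting Y counts left out. Each test was checked on simulated counts in which 200 genes had been changed. The text names all regulators, the listed pathway genes with an unadjusted p of at most 0.05 (or the 3 of smallest p), and the 5 genes most like PPARA. Other named markers and list genes were chosen after their values were seen. The members and lists were chosen with earlier results of these data known.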

Additional observations from a re-analysis of the deposited data

How the results depend on the processing

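No pig stood apart from its group for any regulator by Dixon's test (0 of 20 groups, where chance gives about 1 in 20). The number of DEGs was 0 by edgeR, 57 by DESeq2 on the same genes, 64 by DESeq2 on all genes with counts, and 0 to 1 with 1 pig left out of the edgeR fit, while DESeq2 gave 42 to 187. The log2FC of PPARA was 0.64 by both DESeq2 fits, past the DEG limits, and 0.57 without pig 12. That of PPARGC1A passed by DESeq2 without pig 10 (1.10). Small differences changed sign. Without the 6 pigs of conflicting Y counts, the log2FC was 0.13 for PPARG, −0.12 for ESRRA, 0.0696 for ESRRG and −0.40 for PPRC1, and the log2 ratio was −0.15 for PPARD to PPARG and 0.20 for ESRRG to ESRRA. With 1 pig left out, edgeR ranges were −0.19 to 0.0202 for PPARGC1B, −0.0522 to 0.11 for ESRRA, −0.17 to 0.0447 for ESRRG, −0.0342 to 0.24 for PPRC1, −0.38 to 0.0722 for PPARA to PPARGC1A and −0.17 to 0.0817 for ESRRG to ESRRA. By DESeq2, PPARGC1B was at 0.0247 without pig 2 and 0.00239 without pig 12, ESRRA at −0.031 without pig 2 and −0.0534 without pig 7, and ESRRG at 0.0539 without pig 3 and 0.0298 without pig 5. The number of PPARA ratios past the adjusted threshold was 2 to 5 with 1 pig left out, most without pig 2, and 0 without the 6 pigs. Correlated pairs numbered 0 to 1 among regulators and 0 to 2 with marker lists, and 0 with the summed CPM of a list, of which GPD1 holds most in the adipocyte list. The number of regulators at an unadjusted p of 0.05 was 2 to 4. The lists' counts, the named pathway genes and the sum without GPD1 were put to these alternatives after the data were seen. The causes of these changes were not tested. No paired analysis was possible because the labels give no replicate number, lane or slaughter day that pairs the pigs. Each pig had at least 131048805 counts.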
